A study of Homo sapiens with 12 samples.

Results

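Chemokines are small secreted proteins that attract leukocytes, and senescent fibroblasts release several of them as part of the senescence-associated secretory phenotype (SASP). They are named by the spacing of their first cysteines (CC, CXC, CX3C) and act through receptors that pass the membrane several times and couple to G proteins. The genes described here are 10 chemokines other than the CXCR2 ligands: the CC chemokines CCL2, CCL3, CCL5, CCL7, CCL8, CCL20 and CCL26, and the CXC chemokines CXCL12, CXCL14 and CXCL16. They were taken by symbol from the 62069 genes of the count table. Of the 10, 8 had a row and 7 had a read in any library. CCL3 and CCL5 were not analysed here, since the identifiers that the naming tables pair with these symbols (ENSG00000277632 and ENSG00000271503) had no row.

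The libraries come from IMR90 ER:RAS cells, a line of human lung fibroblasts that carries RAS fused to the ligand-binding domain of the estrogen receptor. Adding 4-hydroxytamoxifen (4OHT) activates RAS and starts oncogene-induced senescence (OIS). The 12 libraries fall into 4 groups of 3, namely vector without 4OHT (replicates T, A and C), and vector/4OHT, shXPO7_3/4OHT and shXPO7_5/4OHT (replicates T, A and B each), the latter with an shRNA against the nuclear export receptor XPO7. The 4OHT dose was 100 nM. All groups carried ER:RAS, were at passage 13, were grown for 7 days with new medium on day 4, and bear the label of 5 days after induction. The labels call the groups non-induced, induced, and induced with either shRNA, while the vector is given by the scheme of the study, where the shRNA that the labels write shXPO7_5 was taken to be shXPO7_X5. No group had an shRNA without 4OHT, or 4OHT without ER:RAS. No source states that the replicates were grown as separate cultures, and the p-values reflect differences among these libraries, which could be technical.

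Library totals ran from 28534141 to 60397769 counts. XPO7 was 137 ± 8.81 CPM (SD, n = 3) in vector/4OHT, 27.7 ± 1.14 CPM (SD, n = 3) in shXPO7_3/4OHT and 52.2 ± 1.62 CPM (SD, n = 3) in shXPO7_5/4OHT. Levels are in CPM, counts scaled to a common library size with TMM factors, and all fold changes are from edgeR's quasi-likelihood model on the 15284 genes that passed its expression filter, with Benjamini-Hochberg adjusted p over these genes and a call at an adjusted p under 0.05. Markers of fibroblasts were abundant, with the summed level of 10 markers at 24444 to 28192 CPM in vector and 17159 to 18623 CPM in vector/4OHT. Among leukocyte markers CD3E had no count and PTPRC, the pan-leukocyte antigen CD45, had 0 to 2 counts in any library. The endothelial genes PECAM1 and CDH5 and the epithelial genes KRT5, KRT14 and SFTPC had no count. The other endothelial and epithelial markers summed to low levels, which were lower in vector/4OHT than in vector. The endothelial list stood at 14.6 to 15.05 CPM in vector and 9.43 to 10.3 CPM in vector/4OHT, and the epithelial list at 6.22 to 6.86 and 1.72 to 2.10 CPM. Within the endothelial list only TEK had a lower mean in vector/4OHT (6.31 against 12.4 CPM in vector). The means of VWF (2.22 to 3.14 CPM), KDR (0.236 to 0.339 CPM) and ERG (0.00810 to 0.0344 CPM) were higher.

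The promoters of CCL20, CCL7 and CXCL12 are shown because these genes had the largest fitted changes with RAS induction among the chemokines described here. Each sequence is the RefSeq window from 250 bases before to 50 bases after the annotated start (GRCh38.p14), 5′ to 3′ on the strand of the gene, and capitals mark a match to a searched motif. The motifs were the kappa-B consensus, which NF-kB binds, and the AP-1 motif TGANTCA, both read on both strands. CCL20 lies at chr2:227813592-227813891 on the plus strand, CCL7 at chr17:34269971-34270270 on the plus strand and CXCL12 at chr10:44385048-44385347 on the minus strand.
CCL20: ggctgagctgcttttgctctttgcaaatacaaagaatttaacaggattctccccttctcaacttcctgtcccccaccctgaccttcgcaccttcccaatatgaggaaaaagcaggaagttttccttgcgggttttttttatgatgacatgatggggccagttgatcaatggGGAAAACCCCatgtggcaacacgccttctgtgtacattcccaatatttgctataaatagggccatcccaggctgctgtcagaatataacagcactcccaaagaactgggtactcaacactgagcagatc
CCL7: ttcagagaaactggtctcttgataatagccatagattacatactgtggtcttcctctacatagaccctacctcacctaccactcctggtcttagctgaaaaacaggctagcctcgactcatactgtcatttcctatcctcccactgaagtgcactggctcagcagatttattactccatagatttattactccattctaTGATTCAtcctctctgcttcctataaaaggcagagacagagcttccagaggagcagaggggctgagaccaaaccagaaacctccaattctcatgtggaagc
CXCL12: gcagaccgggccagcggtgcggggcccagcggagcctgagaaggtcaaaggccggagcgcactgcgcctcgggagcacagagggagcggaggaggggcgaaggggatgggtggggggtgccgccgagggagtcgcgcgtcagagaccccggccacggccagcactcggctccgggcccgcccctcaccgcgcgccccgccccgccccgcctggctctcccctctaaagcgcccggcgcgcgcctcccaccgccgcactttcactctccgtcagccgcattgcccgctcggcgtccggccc

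The CCL20 window held a kappa-B match, on the minus strand, whose first base stands at -79 from the start. The CCL7 window held an AP-1 match from -51. The CXCL12 window held neither motif, and its GC content was 77%, beside 46.3% for CCL20, 45% for CCL7 and a median of 58.7% over all windows. Of the 8 genes with a row, 6 had a window in the table (CCL7, CCL8, CCL20, CCL26, CXCL12 and CXCL14). A kappa-B match was found in 1 of the 6 and an AP-1 match in 2, CCL7 and CXCL14. Over all 35116 windows the shares were 11.3% and 7.71%. A match is a string of letters and not a tested site. The windows were placed on the RefSeq starts, which for CCL20 and CXCL12 lie inside the longer gene spans of GENCODE release 29.

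RAS induction moved these chemokines in both directions. CCL2, CCL7, CCL20 and CCL26 rose in vector/4OHT against vector, with CCL20 going from almost no reads to 2.96 ± 0.332 CPM (SD, n = 3). CXCL12, the most abundant of these genes after CCL2 per length in non-induced cells, fell from 26.4 ± 0.867 to 0.699 ± 0.167 CPM (SD, n = 3 each), and CXCL16 fell as well, at low counts. Of the 6 genes that passed the expression filter, 4 were called higher and 2 lower, where 24.8% of all genes tested were called higher, 26.1% lower and 50.9% in either direction. CCL7, CCL20 and CCL26 met the minimum of the filter only in the groups with 4OHT and CXCL16 only in vector, so that they could pass only by differing, and the count over these 6 says little. For each of the 6 genes no vector/4OHT library overlapped with a vector library (exact permutation test on log2(CPM + 1), two-sided, p = 0.1, the smallest that 3 libraries against 3 can give). The share of all genes without such overlap was not computed, so this count is no result about these 6 genes. In bulk RNA, fewer cells that express a gene and less of its RNA per cell cannot be told apart.

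CCL2 (ENSG00000108691, chr17:34255218-34257203, plus strand, GRCh38), also called MCP-1, attracts monocytes through the receptor CCR2. Its level was 21.0, 21.9 and 21.1 CPM in vector replicates T, A and C, and 58.9, 64.4 and 61.7 CPM in vector/4OHT replicates T, A and B. The vector libraries lay within 1 CPM of each other and every induced library lay above them. The log2 fold change was 1.53 (standard error 0.0903, adjusted p = 3.4e-08), which is 2.89-fold. It was the most abundant of the 8 genes per length in vector/4OHT and in vector.

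CCL7 (ENSG00000108688, chr17:34270221-34272242, plus strand), or MCP-3, is a second monocyte attractant whose gene starts 15 kb downstream of the start of CCL2. It had 8, 13 and 8 counts in vector replicates T, A and C and 68, 54 and 118 counts in vector/4OHT replicates T, A and B. On the CPM scale these were 0.247, 0.316 and 0.227 against 1.86, 1.91 and 2.38, so all induced libraries were higher. The log2 fold change was 2.94 (standard error 0.237, adjusted p = 6.14e-07), or 7.69-fold.

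The rest of this gene cluster was nearly without reads. CCL8 (ENSG00000108700), or MCP-2, which starts 63.8 kb from CCL2, had 0 counts in 12 of 12 libraries. A count of 0 allows up to 3 counts over a group, which is 0.0276 CPM in vector, 0.0262 in vector/4OHT, 0.0233 in shXPO7_3/4OHT and 0.0302 in shXPO7_5/4OHT, for counting error only. Between CCL7 and CCL8, the eosinophil attractant CCL11 (30.4 kb) had 10 counts over all libraries, all of them in the knockdown groups, and CCL13 (101 kb) and CCL1 (105 kb) had 3 counts and 1 count. Reads in this cluster were thus found at CCL2 and CCL7, with the levels of its other genes not detectable or at the limit of this depth.

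CCL20 (ENSG00000115009, chr2:227805739-227817564, plus strand) attracts lymphocytes and dendritic cells through CCR6. It had 0, 0 and 1 counts in vector replicates T, A and C and 110, 92 and 129 counts in vector/4OHT replicates T, A and B. Over the groups the ratio was 315 on the scaled counts, with an exact 95% binomial interval of 56.1 to 12476 that covers counting error only. The fitted log2 fold change was 7.88 (standard error 0.554, adjusted p = 1.76e-07), a value that depends on the prior count, since the vector group held a single read. Without vector replicate C, which held it, the fitted value was 9.80, and with replicate A of vector left out it was 7.33.

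CCL26 (ENSG00000006606, chr7:75769533-75789896, minus strand), or eotaxin-3, attracts eosinophils through CCR3. Its counts were 10, 11 and 6 in vector and 24, 13 and 33 in vector/4OHT. In CPM this was 0.309, 0.267 and 0.170 against 0.656, 0.461 and 0.666, and vector/4OHT replicate A came nearest to the vector libraries. The log2 fold change was 1.27 (standard error 0.268, adjusted p = 0.00171), or 2.41-fold.

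CXCL12 (ENSG00000107562, chr10:44370165-44386493, minus strand), also called SDF-1, is made by stromal cells and retains CXCR4-bearing cells in tissues such as bone marrow. It measured 27.3, 25.6 and 26.1 CPM in vector replicates T, A and C, and 0.519, 0.851 and 0.726 CPM in vector/4OHT replicates T, A and B. All induced libraries stood far below all vector libraries, with 19 to 36 counts against 884 to 1055. The log2 fold change was -5.24 (standard error 0.163, adjusted p = 1.43e-10), a 37.9-fold lower level. Several fibroblast markers were lower in the same comparison, among them the proteoglycan DCN (log2 fold change -3.37) and the collagen COL1A2 (-1.16). Of the 10 markers, 5 were called lower and none higher. Among all genes tested 26.1% were called lower, 24.8% higher and 50.9% in either direction. The share of markers called in either direction was thus near that of all genes. The 5 of 10 called lower were a larger share than the 26.1% of all genes. FAP was higher in all vector/4OHT libraries but not called (0.53, adjusted p = 0.155). The endothelial TEK (-0.98, adjusted p = 1.52e-06) and the epithelial CLDN4 (-2.03, adjusted p = 4.32e-07) and EPCAM (-0.89, adjusted p = 0.0225) were called lower. The endothelial VWF (0.50, adjusted p = 0.0521) and KDR (0.57, adjusted p = 0.249) went the other way and were not called. The part of these markers' cell types in the CXCL12 and CXCL16 values was not tested.

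CXCL16 (ENSG00000161921, chr17:4733526-4739922, minus strand) is a chemokine anchored in the membrane that binds CXCR6. Its counts were 19, 36 and 11 in vector and 10, 1 and 11 in vector/4OHT, or 0.587, 0.874 and 0.312 CPM against 0.273, 0.0354 and 0.222 CPM. The lowest vector library, C, lay just above the highest induced library, T. The log2 fold change was -1.65 (standard error 0.519, adjusted p = 0.0189). The call was lost without vector replicate A (-1.24, adjusted p = 0.103) and without vector/4OHT replicate A (-1.27, adjusted p = 0.0586).

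CXCL14 (ENSG00000145824, chr5:135570679-135579279, minus strand), a chemokine of epithelia and stroma, did not pass the filter. It had 0, 1 and 2 counts in vector, 0, 1 and 0 in vector/4OHT, 4, 0 and 0 in shXPO7_3/4OHT and 1, 1 and 0 in shXPO7_5/4OHT. No difference between groups was detectable at this depth.

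**Figure D1:**
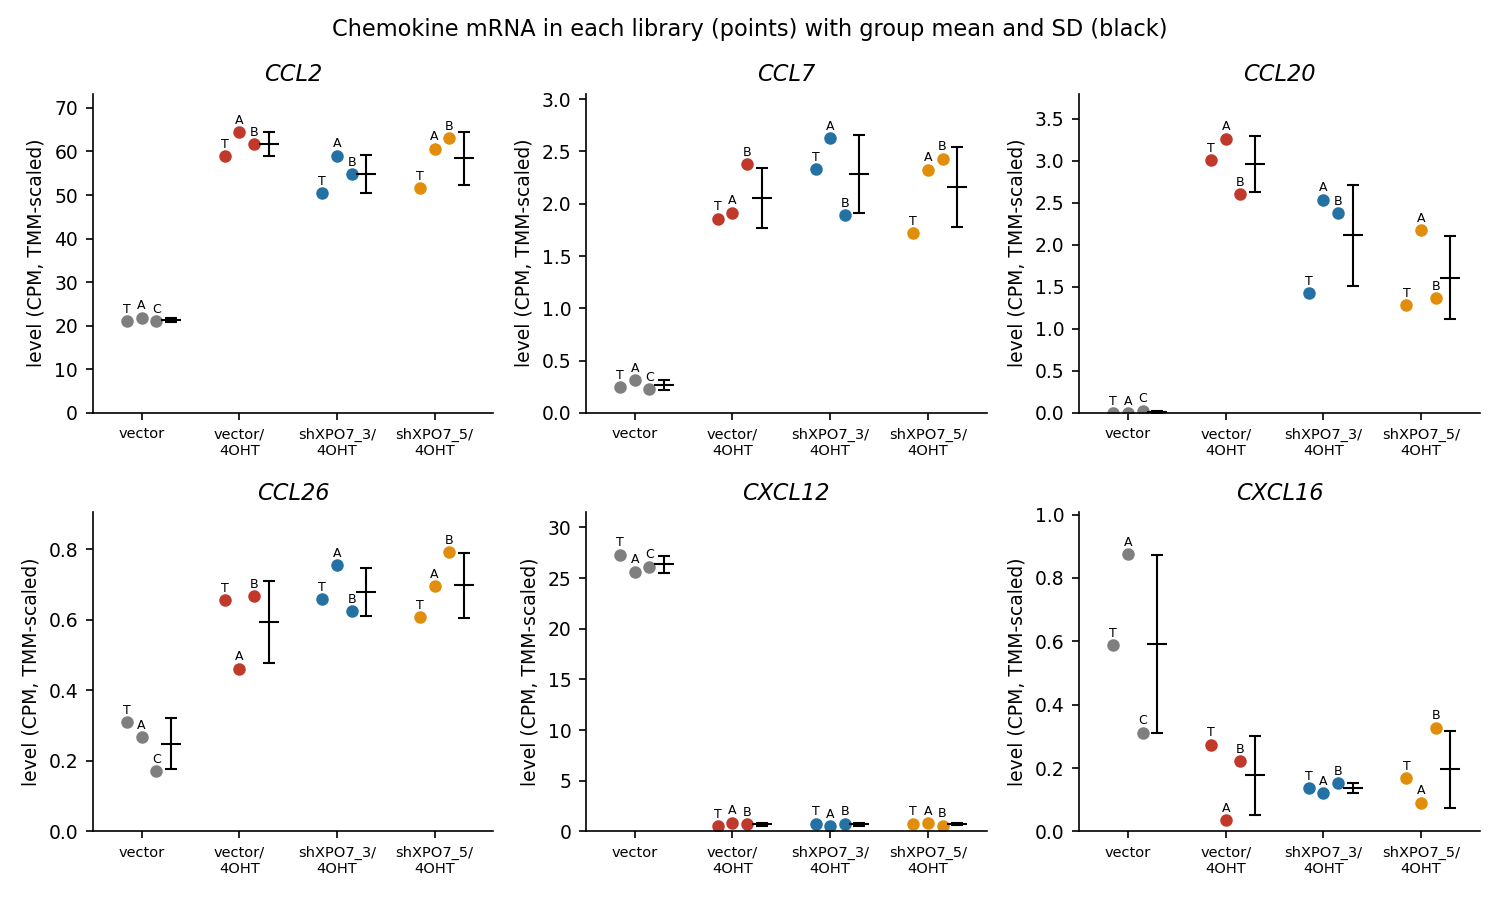
Level of the 6 chemokines that passed the filter in each library (y axis, CPM after TMM scaling, from 0) by group (x axis), with replicate letters at the points and the group mean and SD in black (n = 3). CCL2, CCL7, CCL20 and CCL26 lay higher and CXCL12 and CXCL16 lower in vector/4OHT than in vector, and for CCL20 all knockdown libraries lay below the vector/4OHT libraries.

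Per kilobase of exon, the order of the genes changed with induction. In vector, CCL2 stood at 10.7 ± 0.232 CPM per kb and CXCL12 at 4.34 ± 0.143 (SD, n = 3 each). CCL26 (0.352 ± 0.101), CCL7 (0.305 ± 0.0540) and CXCL16 (0.212 ± 0.101) followed, and neighbours among these 3 overlapped in their libraries. In vector/4OHT the order was CCL2 (31.0 ± 1.37), CCL7 (2.38 ± 0.332), CCL20 (1.85 ± 0.208), CCL26 (0.842 ± 0.164), CXCL12 (0.115 ± 0.0275) and CXCL16 (0.0633 ± 0.0448), where only CXCL12 and CXCL16 overlapped. Within single libraries, CCL2 was 2.36 to 2.61 times CXCL12 per length in vector and 231 to 347 times in vector/4OHT. Exon lengths were those of GENCODE release 29, matched by identifier, and not of the annotation used for counting.

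Few chemokine receptors had enough reads to be tested. Of 23 receptor genes, including those of other chemokines, 16 had a read in some library, 7 had none and 4 passed the filter. CCR1, a receptor for CCL7 among other CC chemokines, had 1, 1 and 0 counts in vector and 28, 39 and 64 in vector/4OHT. All induced libraries were higher (log2 fold change 5.72, adjusted p = 1.07e-06), and the ratio over the groups was 62.3, with an exact 95% binomial interval of 16.9 to 520 for counting error. CXCR4, the signalling receptor of CXCL12, had 0 counts in 3 of 3 vector libraries and 13, 9 and 8 in vector/4OHT. This was at least 9.51-fold higher, taking 3 counts over the vector group as the limit (adjusted p = 0.000324), while the second CXCL12 receptor ACKR3 had 0 to 2 counts in any library. CCR1 and CXCR4 could pass the filter only through the groups with 4OHT, so their calls as higher say little. CCR10 (-0.58, adjusted p = 0.25) and CCRL2 (0.93, adjusted p = 0.0891) did not pass the test. CCR2, the receptor of CCL2, had at most 1 count, CCR6, that of CCL20, at most 5, CCR3 at most 2 and CXCR6, that of CXCL16, none. Leukocyte markers summed to 0.972 to 1.30 CPM in vector and 1.42 to 1.72 CPM in vector/4OHT, with CSF1R, a receptor of macrophages, called higher (log2 fold change 1.27, adjusted p = 0.00435) and LYZ not (-0.15). Of the 10 leukocyte markers 1, CD3E, was at 0 in every library. The part of other cell types in the receptor values was not tested.

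Other chemokines set these values in context. Of the 7 CXCR2 ligands, which attract neutrophils, 6 passed the filter and all 6 were called higher, beside 24.8% of all genes tested. Their median log2 fold change was 6.31, with CXCL8 (7.65) and CXCL1 (6.08) among them. CXCL1, CXCL2, CXCL3 and CXCL6 had as few as 8, 0, 0 and 3 counts in a vector library. These 4 could pass the filter only through the groups with 4OHT, so the count and the median say little. Of 10 further CXC, CX3C and XC chemokines 3 passed. CXCL10, an interferon-inducible attractant of T cells, rose from 0.423 ± 0.0491 to 3.48 ± 0.0831 CPM (SD, n = 3 each, log2 fold change 3.03, adjusted p = 2.63e-07). CXCL11, of the same kind, was 2.08 on the log2 scale and missed the threshold (adjusted p = 0.0653). The membrane-anchored CX3CL1, or fractalkine, went from 0.915 ± 0.0704 to 0.347 ± 0.109 CPM (SD, n = 3 each), a log2 fold change of -1.34 (adjusted p = 0.000835). Of 21 further CC chemokines 11 had a row and CCL28, a mucosal chemokine, was the only one to pass. It had 14, 13 and 12 counts in vector and 3, 1 and 4 in vector/4OHT (log2 fold change -2.32, adjusted p = 0.00253). CCL28 could pass the filter only through vector, so its call as lower says little. The median log2 fold change over all genes tested was -0.00675.

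Of 8 proteases known to cut chemokines, all passed the filter, and 3 were called higher with RAS induction and none lower, beside the 24.8% of all genes called higher and 26.1% called lower. The collagenase MMP1 (log2 fold change 2.32, adjusted p = 4.46e-11), the stromelysin MMP3 (4.73, adjusted p = 1.57e-11) and the membrane-bound MMP14 (1.14, adjusted p = 4.97e-07) passed. The dipeptidyl peptidase DPP4, which trims CXCL12, was 0.27 (adjusted p = 0.0701) and MMP2 was -0.22 (adjusted p = 0.0558). The gelatinase MMP9 had 3, 0 and 3 counts in vector and 5, 3 and 14 in vector/4OHT, without overlap in CPM, and just missed the threshold (1.70, adjusted p = 0.0504). ADAM10 (0.0216) and ADAM17 (0.11), sheddases of CXCL16 and CX3CL1, had 95% confidence intervals of -0.46 to 0.50 and -0.11 to 0.33.

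**Figure D2:**
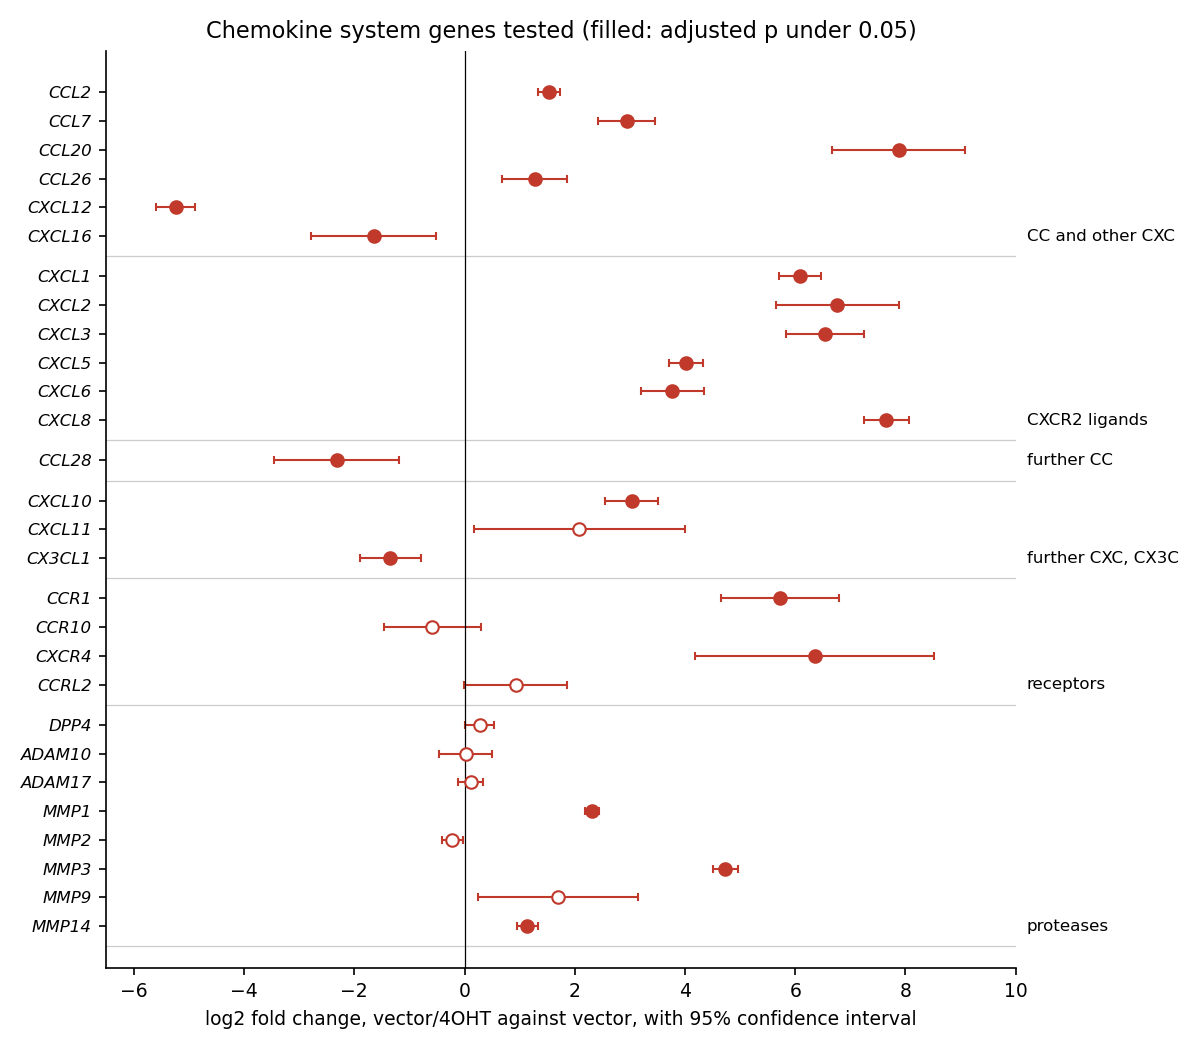
Fitted log2 fold change of vector/4OHT against vector (x axis) with its 95% confidence interval for each chemokine, receptor and protease that passed the filter (y axis), where filled points were called. CXCL12 is the lowest point at -5.24, and the values of CCL20, CXCL2, CCR1 and CXCR4 depend on the prior count because the vector libraries held 0 to 2 reads in all.

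The second question of the design was whether XPO7 knockdown changed these genes in induced cells. None of the 6 genes tested was called with either shRNA. With shXPO7_3 the share called among all genes was 0.124% and with shXPO7_5 0.589%, so few genes of any kind were called. At an unadjusted p under 0.05 in edgeR, 0 of the 6 genes passed for shXPO7_3 and 1, CCL20, for shXPO7_5. Of all 15284 genes tested, 979 and 3302 passed at this threshold, so these counts say little about the 6 genes. DESeq2 gave the same numbers for the 6, although it gave no adjusted p for CCL20 with shXPO7_5. Its numbers over all genes were 726 and 3134 of 15278. A missed threshold does not show that the levels were alike, and the confidence intervals say how large a change could have been.

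CCL20 was the gene with the largest difference from vector/4OHT. Its level was 3.01, 3.26 and 2.60 CPM in vector/4OHT replicates T, A and B, against 1.43, 2.54 and 2.38 CPM in shXPO7_3/4OHT and 1.28, 2.17 and 1.37 CPM in shXPO7_5/4OHT. All 6 knockdown libraries lay below all vector/4OHT libraries, and yet all of them lay far above the vector libraries, where the highest value was 0.0283 CPM. With shXPO7_5 the log2 fold change was -0.87 (95% confidence interval -1.43 to -0.31, adjusted p = 0.133) and with shXPO7_3 it was -0.47 (-1.003 to 0.0612, adjusted p = 0.882). The exact permutation test gave p = 0.1 for each, the smallest that it can give. Both comparisons use the same vector/4OHT libraries. Without replicate A of shXPO7_5/4OHT the value was -1.15 and was called (adjusted p = 0.0305), in a fit that called 3634 genes where the fit to all libraries called 90.

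CCL20 levels in the knockdown libraries can be set beside a trend with the GC content of transcripts. CCL20 transcripts have a GC content of 38%, lower than all but 2.79% of the genes tested, whose median was 49.5%. Taken over genes, which are no independent replicates, GC content had a Spearman correlation with each library's log2 ratio to mean vector/4OHT levels of 0.554 in shXPO7_3/4OHT replicate T, 0.588 in shXPO7_5/4OHT replicate T and 0.764 in shXPO7_5/4OHT replicate B. These were the 3 libraries with the lowest CCL20 level among those with 4OHT. In the other knockdown libraries, with CCL20 at 2.17 to 2.54 CPM, it was -0.336 and -0.234 (shXPO7_3/4OHT replicates A and B) and 0.118 (shXPO7_5/4OHT replicate A). In vector/4OHT it was -0.167, -0.200 and 0.301 in replicates T, A and B. Each of these libraries is part of the mean it is compared with, unlike the knockdown libraries, so the values are not fully comparable. Replicate B of vector/4OHT, with the highest of its group, had more CCL20 (2.60 CPM) than the 3 knockdown libraries with a lower correlation. With GC content and length corrected for, the CCL20 log2 fold change was -0.55 with shXPO7_5 (adjusted p = 0.104) and -0.47 with shXPO7_3 (adjusted p = 0.188). CCL7, also low in GC content at 40.8%, had log2 fold changes of 0.0688 with shXPO7_5 and 0.13 with shXPO7_3. CXCL10, at a GC content of 37.5%, had -0.70 with shXPO7_5 and -0.59 with shXPO7_3, neither of them called. Whether GC content accounts for the CCL20 values was not tested.

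**Figure D3:**
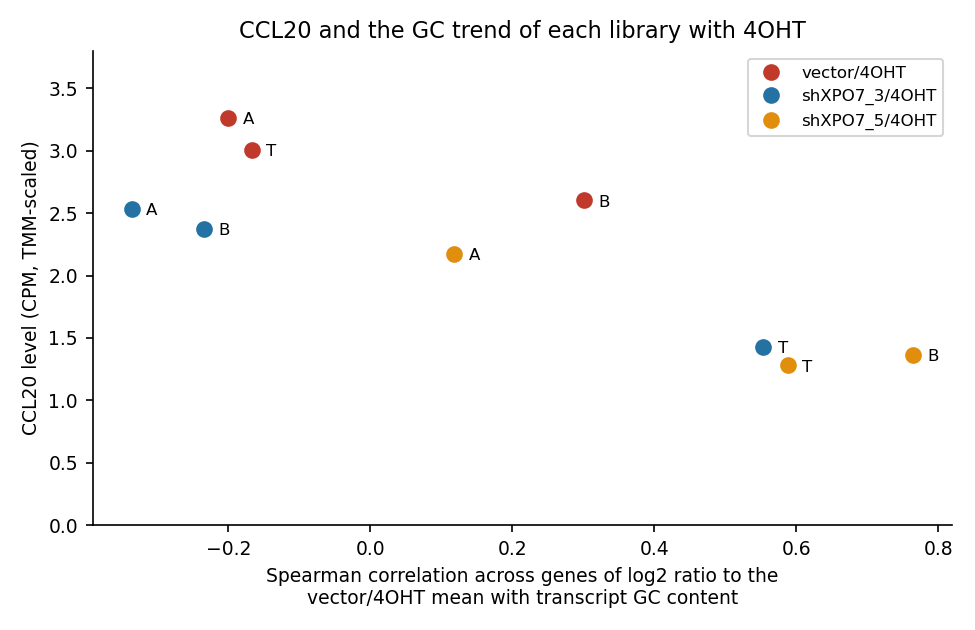
CCL20 level (y axis, CPM after TMM scaling) of the 9 libraries with 4OHT against the Spearman correlation, across genes, of transcript GC content with each library's log2 ratio to mean vector/4OHT levels (x axis), with replicate letters. The 3 libraries at a correlation of 0.554 or more have CCL20 at 1.28 to 1.43 CPM and the other 6 at 2.17 to 3.26 CPM. The vector/4OHT libraries are part of the mean they are compared with, so their x values are not fully comparable with those of the knockdown libraries.

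The other genes stayed near their vector/4OHT levels in the mean. CCL2 was 50.4, 59.1 and 54.8 CPM in the shXPO7_3/4OHT libraries (T, A and B) and 51.5, 60.7 and 63.0 CPM in shXPO7_5/4OHT, and both sets overlapped with vector/4OHT. Its log2 fold changes were -0.17 (95% confidence interval -0.36 to 0.0188) with shXPO7_3 and -0.078 (-0.27 to 0.11) with shXPO7_5. The interval for CCL2 was thus narrow, beside its 1.53 with induction. CCL7 was 2.33, 2.63 and 1.89 CPM with shXPO7_3 and 1.72, 2.33 and 2.43 CPM with shXPO7_5, with log2 fold changes of 0.13 (-0.26 to 0.52) and 0.0688 (-0.32 to 0.46). CCL26 was 0.659, 0.755 and 0.624 CPM and 0.606, 0.695 and 0.792 CPM, with log2 fold changes of 0.16 (-0.34 to 0.66) and 0.21 (-0.29 to 0.72).

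CXCL12 remained low in the knockdown cells. It was 0.768, 0.543 and 0.758 CPM with shXPO7_3 and 0.775, 0.846 and 0.573 CPM with shXPO7_5, all within the range of vector/4OHT. The log2 fold changes were 0.0170 (95% confidence interval -0.43 to 0.46) and 0.0691 (-0.39 to 0.53). CXCL16 was 0.137, 0.121 and 0.152 CPM with shXPO7_3 and 0.168, 0.0906 and 0.328 CPM with shXPO7_5. At these 3 to 12 counts per library its intervals were wide, at -0.43 (-1.81 to 0.94) and 0.0805 (-1.28 to 1.44).

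**Figure D4:**
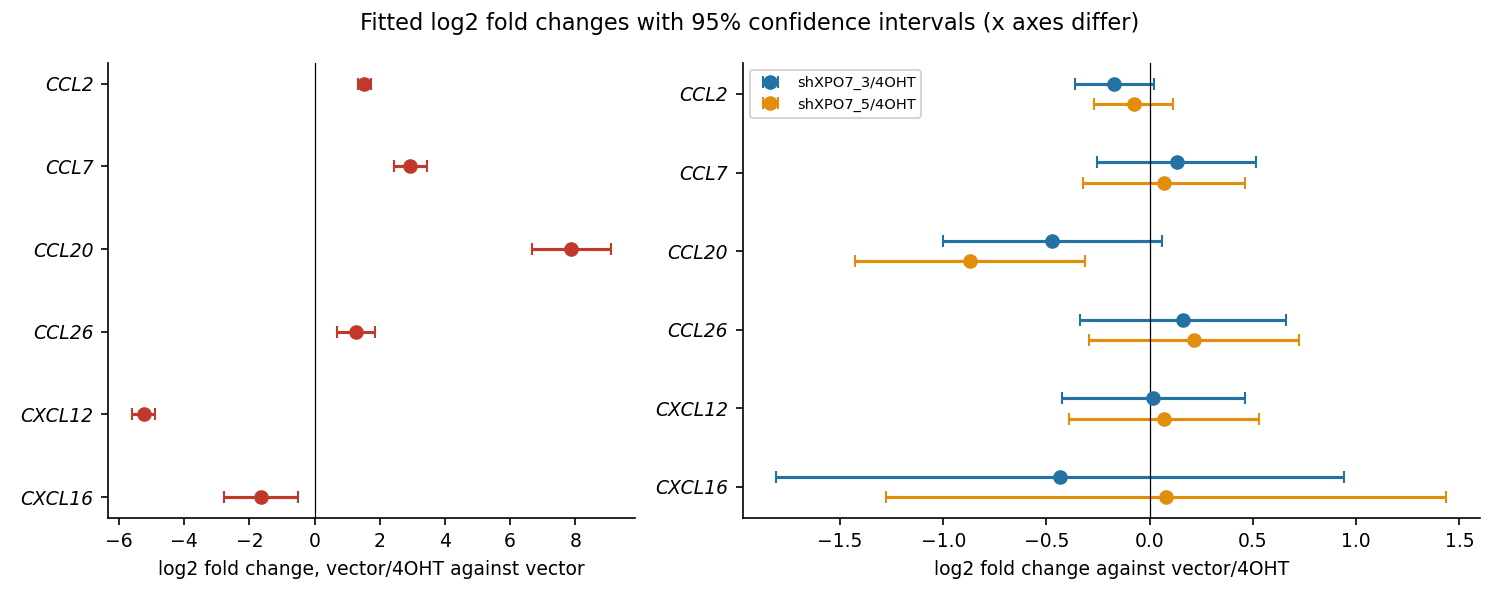
Fitted log2 fold changes (x axes, with different scales) and 95% confidence intervals of the 6 chemokines that passed the filter (y axis), for vector/4OHT against vector on the left and for each shRNA against vector/4OHT on the right. All intervals on the left exclude 0, and on the right only that of CCL20 with shXPO7_5 does, at -1.43 to -0.31.

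The shRNAs were also compared directly. Of the 6 genes none was called between shXPO7_5/4OHT and shXPO7_3/4OHT, beside 0.0131% of all genes, and none had an unadjusted p under 0.05 in edgeR or DESeq2. Over all genes, 1819 of 15284 passed this unadjusted threshold in edgeR and 1679 of 15278 in DESeq2, so 0 of 6 says little. The log2 fold change of CCL20 was -0.40 (95% confidence interval -0.96 to 0.16) and was -0.0866 after the GC content and length correction. CCL2 had 0.0937 (-0.097 to 0.28) and CXCL16 0.51 (-0.89 to 1.91), while XPO7 itself was called higher with shXPO7_5 (0.92, adjusted p = 0.000387). Among the further chemokines, the CXCR2 ligands, the receptors and the proteases, none was called in any of these 3 comparisons. CCR1 came nearest among the receptors, with 0.87 (adjusted p = 0.263) with shXPO7_3 and 0.78 (adjusted p = 0.138) with shXPO7_5. CXCL10 was -0.59 (95% confidence interval -0.98 to -0.21, adjusted p = 0.365) with shXPO7_3 and -0.70 (-1.10 to -0.30, adjusted p = 0.0982) with shXPO7_5. As for CCL20, all CXCL10 values of the knockdown libraries lay below those of vector/4OHT. MMP9 was 1.41 (adjusted p = 0.442) with shXPO7_3 and 1.57 (adjusted p = 0.127) with shXPO7_5, with 23, 12 and 30 and with 17, 16 and 23 counts, and in CPM all knockdown libraries lay above the vector/4OHT libraries.

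The genes with the most similar patterns were ranked for the 4 chemokines whose log2 CPM averaged 0 or more, by Pearson correlation of log2 CPM across libraries, as a description of libraries that share groups and scaling. Over the 12 libraries, which the induction step dominates, those closest to CCL2 were RGS20 (r = 0.993), LSG1 (0.991) and MARCHF3 (0.991). For CCL7 they were AC098614.1 (0.992) and PCGF3 (0.991), for CCL20 KIF3B (0.998), KYNU (0.997) and DDX10 (0.997), and for CXCL12 PTGER2 (0.997), SKA1 (0.996) and CDCA7L (0.996). Over the 9 libraries with 4OHT the order was different. CCL2 was then closest to DUSP16 (0.937), LSG1 (0.934) and ZNF790-AS1 (0.918), CCL7 to HOXA5 (0.938), POLRMTP1 (0.929) and ANXA2P1 (0.897), and CXCL12 to ALPL (0.893), LINC02976 (0.893) and MIR924HG (0.874). CCL20 was closest to CLMP, IFNGR1 and FLRT3 (0.989, 0.989 and 0.988). Between the neighbours CCL2 and CCL7 the correlation was 0.983 over all 12 libraries and 0.301 over the 9 with 4OHT, and between CCL2 and CCL20 it was 0.984 and 0.567.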

How the data were processed

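RNA-seq counts of 12 libraries in 4 groups of 3 were analysed. The authors deposited raw counts of reads per gene, without normalization. The libraries were made with an Illumina stranded mRNA kit, and the submitters' processing notes list hg19 and GRCh37 with CASAVA 1.8.4, TopHat2 2.0.11 and featureCounts 1.18.0. Annotation, strandedness of counting and use of multiply matching reads were not given in the sources used here. Counts of overlapping or near-identical genes are therefore uncertain. The table's 92 spike-in rows, at 0 throughout, were dropped. Symbols came from a gene name table or GENCODE release 29 (GRCh38), matched by Ensembl identifier, which also gave coordinates, lengths and GC content.

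Counts were fitted in R 4.3.3 with edgeR 4.0.16 (filterByExpr, TMM, quasi-likelihood test, all 12 libraries, 4 groups, no covariates). The Benjamini-Hochberg adjustment ran over 15284 genes, with calls at an adjusted p under 0.05. Single genes were given an exact permutation test (scipy 1.17.1). The script was tested on simulated counts. The alternatives comprised DESeq2 1.42.0, upper-quartile or RLE factors, filters of 1 count in any library or of 1 CPM in 6 libraries, a block for the replicate letter, fits to 2 groups or without each library, a minimum absolute log2 fold change of 1, and a spline correction for GC content and length. Within groups, library pairs differed by more than sampling noise (chi-square per gene of 4.27 to 56.2).

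The genes and lists were chosen with earlier results of these data known. Values were given for all 10 chemokines, for XPO7, for called genes of the listed chemokines, receptors and proteases, and for the 3 genes most similar to each chemokine whose log2 CPM averaged 0 or more. No statement is made on CCL3 and CCL5, and 1 gene under this rule is left unreported.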

Additional observations from a re-analysis of the deposited data

How the results depend on the processing

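The 6 chemokines called with RAS induction kept their sign in every alternative run in which they were tested. Under a filter of 1 CPM in 6 libraries 3 were called, since the filter left CCL26, CXCL12 and CXCL16 untested. CXCL16 lost its call without replicate A of vector or of vector/4OHT, with values from -1.99 to -1.24 over the fits that left out 1 library. With upper-quartile factors the median over all genes was -0.105 on the log2 scale and the share of higher calls was 38.27% instead of 48.77%, with CCL2, CCL7, CCL20 and CCL26 still called higher. With a log2 fold change of at least 1 asked for, 2573 genes were called with induction, 2 with shXPO7_3, 8 with shXPO7_5 and 0 between the shRNAs.

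The same-letter libraries of different groups correlated in their deviations from group means by -0.234 to 0.589, over 0.1 in 8 of 15 pairs. Pairs with different letters ran from -0.620 to 0.512. Whether a letter marks a shared batch was not tested, and the main fit took the letters only as names. With the replicate block CCL20 was 9.88 with induction, CXCL16 was -2.28, CCL20 was -0.90 with shXPO7_5 (adjusted p = 0.0686), none of the 6 chemokines changed its call, and 149 genes instead of 90 were called with shXPO7_5.

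CCL20 with shXPO7_5 was called without a filter beyond 1 count (-0.88, adjusted p = 0.0479), the only one of the 6 genes so called, and in 1 of the fits without 1 library (0 to 1 gene called). Values from -1.15 to -0.74 were found when a library was left out, and adjusted p from 0.0305 to 0.45 over its alternatives.

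Over all genes, the numbers called with shXPO7_3, shXPO7_5 and between the shRNAs, 19, 90 and 2, were 88, 426 and 27 with DESeq2, 335, 408 and 26 after correcting for GC content and length, 357, 804 and 31 with this correction plus the replicate block, 2, 10 and 0 in fits to 2 groups, and 30, 217 and 20 without a filter. Upper-quartile factors gave 8 with shXPO7_3. Leaving out 1 library gave 1 to 1, 2 to 3634 and 1 to 4. At an unadjusted p under 0.05, 820 genes passed in the fit to 2 groups between the shRNAs. The cause was not tested.

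Signs turned only for differences that were never called. Under the correction for GC content and length, without and with the replicate block, CXCL12 was -0.0735 and -0.0803 and CXCL16 -0.11 and -0.10 with shXPO7_5, and between the shRNAs CCL7 was 0.16 and 0.17, CCL26 -0.0526 and -0.0518 and CXCL12 -0.0900 and -0.10. Leaving out 1 library spanned 0 for CXCL12 with shXPO7_3 (-0.15 to 0.14), and with shXPO7_5 for CCL2 (-0.13 to 0.00565), CCL7 (-0.0232 to 0.21), CXCL12 (-0.0972 to 0.23) and CXCL16 (-0.54 to 0.43). Between the shRNAs it spanned 0 for CCL7 (-0.19 to 0.0733), CCL26 (-0.0423 to 0.14), CXCL12 (-0.0726 to 0.22) and CXCL16 (-0.11 to 0.86). Depth left CCL8, with no count, and CXCL14, with 0 to 4 counts per library, untested.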

Other observations

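A receptor gene and a ligand gene outside the comparisons had reads in an uneven pattern, at counts too low to test. CXCR5, the receptor of the B cell attractant CXCL13, had 57 counts in vector replicate T and 2 counts in each of the other vector libraries, and 0 to 7 counts in the libraries with 4OHT. CCL11, which lies between CCL7 and CCL8, had 0 counts in all vector and vector/4OHT libraries, 0, 0 and 2 counts in the shXPO7_3/4OHT libraries (T, A and B) and 4, 2 and 2 in shXPO7_5/4OHT. Both genes were noticed after their values were seen.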
